A study of Mus musculus with 2 samples.

Results

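Brain endothelial nuclei were studied in 2 Slide-tags single-nucleus RNA libraries of the mouse, 1 from the adult hippocampus and 1 from the brain at embryonic day 14 (E14). A nucleus barcode was taken as endothelial when it held at least 1000 UMIs, under 5% of them from mitochondrial genes, and 1 or more UMIs for at least 3 of the 6 genes Flt1, Cldn5, Pecam1, Mecom, Adgrl4 and Tek. In all, 262 of 10698 deposited barcodes met this rule: 63 adult barcodes and 199 E14 barcodes, called members here. The members were picked on their own measured expression, so the levels of the 6 genes, and of genes that follow them, are given as descriptions.

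The adult library came from the hippocampus of a perfused male C57BL/6J mouse at 56 days of age. The embryonic library came from the brain of a whole C57BL/6J embryo that was bought frozen, whose sex is not given in the sources used here. Neither animal carried a stated treatment or engineered allele. Slide-tags attaches spatial barcodes to nuclei in a frozen section before droplet sequencing; only the RNA counts were used here. Each stage had 1 library, so nothing was tested between them. Age, brain region, library, depth and software version differed together, sex may have differed too, and they cannot be told apart. Every interval in parentheses is an exact 95% interval that covers counting error only.

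Endothelial cells line the blood vessels. In the brain they form the blood-brain barrier: tight junctions seal the gaps between neighbouring cells, carriers bring in glucose and amino acids, and pumps send many drugs back to the blood. During development VEGF draws sprouts into the neural tissue, Wnt ligands from neural cells switch on the barrier programme, and pericytes and a basement membrane settle around the new tubes.

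The libraries held 15414627 UMIs over 1661 adult barcodes and 58924407 UMIs over 9037 E14 barcodes. The limits on UMIs and mitochondrial share left 1406 adult and 7997 E14 barcodes, and the members made up 4.48% (3.46 to 5.70) and 2.49% (2.16 to 2.85) of them. The adult members were shallower than the other adult barcodes, with a median of 4322 UMIs (range 1017 to 37456) against 8588. The E14 members were deeper than the other E14 barcodes, with a median of 11489 UMIs (range 1240 to 208500) against 4648. The libraries had 1 barcode in common, which was no member. Scrublet's automatic threshold marked 9 adult barcodes and 0 E14 barcodes as doublets, and no barcode was removed for that reason.

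The 6 genes of the rule encode surface and nuclear proteins of endothelial cells, and their levels in the members are a result of the choice. Flt1 encodes VEGF receptor 1 and lies on chromosome 5, 147561604 to 147726011, minus strand in GRCm38. Its level, as UMIs per 1000000 UMIs summed over a set of barcodes (CPM), was 3695 in adult members and 1.56 in the other adult barcodes, and 456 in E14 members and 4.61 in the other E14 barcodes. Cldn5 (chromosome 16, 18776847 to 18778262, plus strand) encodes claudin 5, the main sealing protein of the brain's tight junctions, and stood at 1989 CPM in adult and 416 CPM in E14 members. Pecam1 (chromosome 11, 106654217 to 106750628, minus strand), an adhesion molecule of endothelial contacts, stood at 524 and 166 CPM. Mecom (chromosome 3, 29951296 to 30548008, minus strand) encodes a zinc finger transcription factor, and its levels were 1342 and 847 CPM. Adgrl4 (chromosome 3, 151437887 to 151545086, plus strand), an adhesion G protein-coupled receptor of vessels, had 1235 and 153 CPM. Tek (chromosome 4, 94739289 to 94874976, plus strand) encodes the angiopoietin receptor TIE2, at 355 and 174 CPM. Of the 6, Tek was the gene with the most signal outside the adult members, 29.4 CPM in the other adult barcodes, where the other 5 lay at or under 2.03 CPM.

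The sequence just upstream of 3 of these genes is shown, because ETS factors such as Erg, Ets1 and Fli1 are known regulators of endothelial genes and their transcripts are described further on. Each is the 250 bases before a RefSeq start site in GRCm38.p6, written 5′ to 3′ on the gene's strand, with AGGAAG or its reverse complement CTTCCT, an ETS-type core, in capitals.
Flt1 (chr5:147726012-147726261, minus strand): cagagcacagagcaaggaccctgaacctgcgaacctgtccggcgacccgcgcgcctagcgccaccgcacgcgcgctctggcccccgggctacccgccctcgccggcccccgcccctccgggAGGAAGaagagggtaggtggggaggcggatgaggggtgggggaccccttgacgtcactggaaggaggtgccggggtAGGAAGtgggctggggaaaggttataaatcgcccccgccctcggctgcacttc
Adgrl4 (chr3:151437632-151437881, plus strand): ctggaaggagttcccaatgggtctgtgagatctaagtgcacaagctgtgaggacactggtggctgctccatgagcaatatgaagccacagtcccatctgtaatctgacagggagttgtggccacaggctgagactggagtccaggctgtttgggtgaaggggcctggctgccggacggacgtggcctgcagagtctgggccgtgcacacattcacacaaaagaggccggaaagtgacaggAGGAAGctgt
Cldn5 (chr16:18776597-18776846, plus strand): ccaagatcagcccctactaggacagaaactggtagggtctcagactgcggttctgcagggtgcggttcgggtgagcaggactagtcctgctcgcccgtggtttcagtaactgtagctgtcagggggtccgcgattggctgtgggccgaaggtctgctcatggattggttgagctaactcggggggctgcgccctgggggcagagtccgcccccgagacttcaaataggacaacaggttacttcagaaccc

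In these windows the letters AGGAAG began 129 and 53 bases before the start site of Flt1 and 10 bases before that of Adgrl4, and the Cldn5 window held neither form. RefSeq windows were matched for 5 of the 6 rule genes, and 2 of their 6 windows held the motif, beside 29.48% of all 32851 windows of the same length. A match of 6 letters is a description and no binding site.

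Each library was clustered on all variable genes, the rule genes included, so the clusters describe the members and are no independent check of the label. In the adult library 56 of 63 members fell in 1 cluster of 56 barcodes, which held no other barcode. It was led by Flt1, Slco1a4, Cldn5, Rgs5 and Ly6c1. Rgs5, and Vtn further down its leading genes, are pericyte genes. In some of its barcodes the pericyte and smooth muscle genes summed to more than the rule genes, as at 17402 against 4047 CPM. Whether these were mixed or pericyte nuclei was not tested, so their endothelial label is uncertain. In the E14 library 150 of 199 members fell in 1 cluster of 178 barcodes, led by Flt1, Cldn5, Egfl7, Slc7a1 and Slco1c1. The other 49 E14 members were spread over clusters led by other genes: 16 lay in a cluster of 141 barcodes led by Htr2c and Ttr, 15 in a cluster of 494 with Creb5 and Fgfr3 among its leading genes, and 6 in a cluster of 353 with Col3a1 and Slc6a13. These 49 were deep, with a median of 24770 UMIs against 9257 for the 150, and held 44.27% of the E14 members' UMIs. The data thus went against the endothelial label for them. The cluster that held most members of a library is called its endothelial gene cluster or main cluster, with 150 members in E14. Comparisons with the other barcodes are given below for all members, these 49 included, unless the main cluster is named. Comparisons between the stages are given for all members and, where stated, for the main clusters.

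Depth differed between members in and out of the rule. When every barcode was thinned to 1000 UMIs before the rule was applied, 50 adult and 85 E14 barcodes met it, and all 85 lay in the main cluster. Ratios given below at equal depth are sums over the full counts of these barcodes, so only the picking was at equal depth. This picking raised the summed rule genes from 9141 to 10416 CPM in the adult and from 2213 to 5401 CPM in E14. Its effect on genes that follow the rule genes was not tested. At the threshold, the 4 adult barcodes with 3 rule genes had a summed level of those genes between 1679 and 20649 CPM (median 4694), and the 26 barcodes just outside, with 2 rule genes, had a median of 141.8 CPM. In the E14 library the limit was blurred: the 39 barcodes with 3 rule genes had a median of 429 CPM and the 137 with 2 had a median of 330.2 CPM. Of those 39, 9 lay in the main cluster, and of the 137, 10 did. The plot of rule gene level against depth shows the E14 members as a cloud with a low, deep tail. In both libraries the summed rule gene level of the members overlapped that of the other barcodes, with an adult member minimum of 1679 CPM against a maximum of 1741 CPM in the others.

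**Figure D1:**
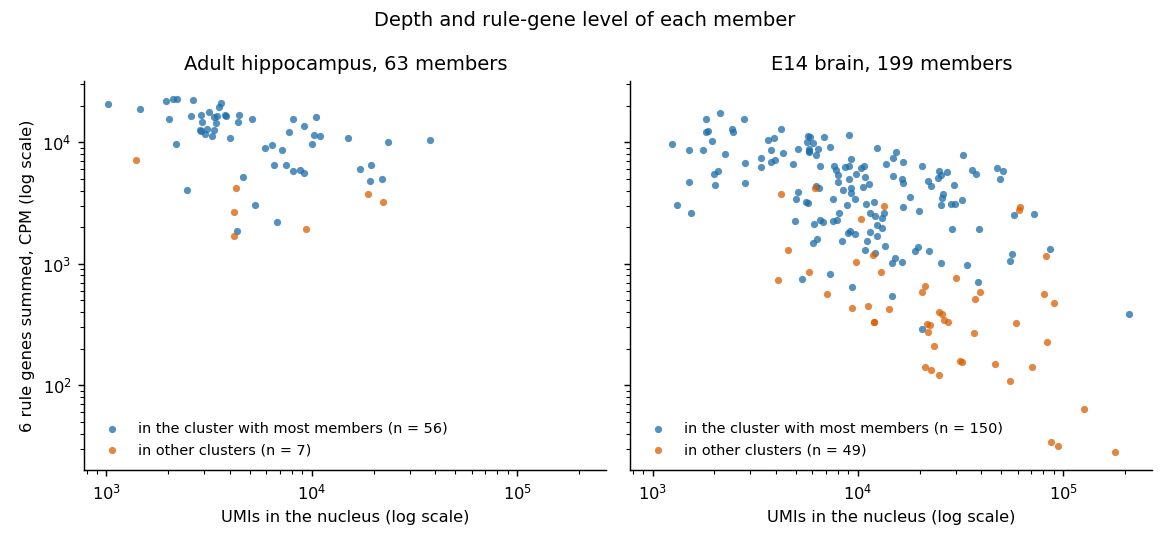
Each point is 1 member: total UMIs on the x axis (log scale) and the summed level of the 6 rule genes in CPM on the y axis (log scale), for the adult hippocampus and the E14 brain; blue points lie in the endothelial gene cluster (56 and 150 members) and orange points in other clusters (7 and 49). The E14 members in other clusters sit low and to the right, with a median rule gene level of 402 CPM against 4437 CPM in the main cluster.

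RNA of other cell types was present in the members and moved with the stage. The 10 neuronal genes summed to 1037 CPM in adult members and 9387 CPM in the other adult barcodes, but to 8580 CPM in E14 members, 5859 CPM in the main cluster and 12535 CPM in the other E14 barcodes. The 12 genes of pericytes and smooth muscle summed to 4926 CPM in adult members against 525 CPM in E14 members, and to 32.1 and 74 CPM in the other barcodes. After thinning to 1000 UMIs, 16 (25.4%, 15.3 to 37.9) of 63 adult and 15 (7.54%, 4.28 to 12.1) of 199 E14 members held 3 or more of these mural genes. The 8 astrocyte genes stood at 5643 CPM in adult members and 439 CPM in E14 members. Red cell genes summed to 285 CPM in adult members, where 57 of 63 had none, and to 1724 CPM in E14 members. The 8 choroid plexus genes, Ttr among them, summed to 81.2 CPM in adult members, 4443 CPM in E14 members and 458 CPM in the main cluster. Ttr, the thyroxine carrier of the choroid plexus, had 0 UMIs in adult members and 16961 in E14 members, of which 469 were in the main cluster, and after thinning a Ttr UMI was found in 32% of main cluster members and 36.1% of the other E14 barcodes. Microglial genes summed to 303 and 232 CPM, fibroblast genes to 226 and 453 CPM, radial glia genes to 836 and 516 CPM, and oligodendrocyte genes to 1007 and 159 CPM in adult and E14 members. The part of these other genes in the results below was not tested, apart from the values for the main cluster, for members picked at equal depth and for members with under 3 mural genes.

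Genes known for endothelial cells outside the rule stood far above the other barcodes in both libraries. Of 30 such genes, 29 of 30 tested were at least 2 times higher in adult members than in the other adult barcodes (median log2 ratio 7.37), beside 28.2% of all 8363 genes tested and a median over all genes of 0.32. In E14, 27 of 29 passed the same ratio (median log2 ratio 5.17), beside 11.1% of 15147 genes and a median of 0.11. Since a gene that is high in 1 set can pass the filter through that set, here and below the counts describe the genes tested and not whole lists. None was at most 0.5 times the level of the others, beside 17.8% of adult and 3.02% of E14 genes. Cdh5, the VE-cadherin of endothelial junctions, had 144 UMIs in adult members (316 CPM) and 1 UMI in the other 1343 adult barcodes. In E14 members its level was 206 CPM, against 9.71 CPM in the other barcodes. Kdr, the VEGF receptor 2 that drives sprouting, stood at 269.8 CPM in adult members and 263 CPM in E14 members, 332 and 66.5 times the other barcodes. Ptprb, a phosphatase that restrains TIE2 and VE-cadherin signalling, was 291 and 45.6 times higher in members, and Egfl7, a secreted vessel protein, 76.7 and 73.8 times. Shank3, known for synapses as well, was the adult gene of the list that missed the ratio, at 1.93 times. Thinned to 1000 UMIs, 28.6% of adult members held a Cdh5 UMI, against 0% of the others, and the E14 shares were 28.6% and 1.06%. Without thinning they were 82.5%, 0.0745%, 73.4% and 3.46%, at the median depths given above.

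**Figure D2:**
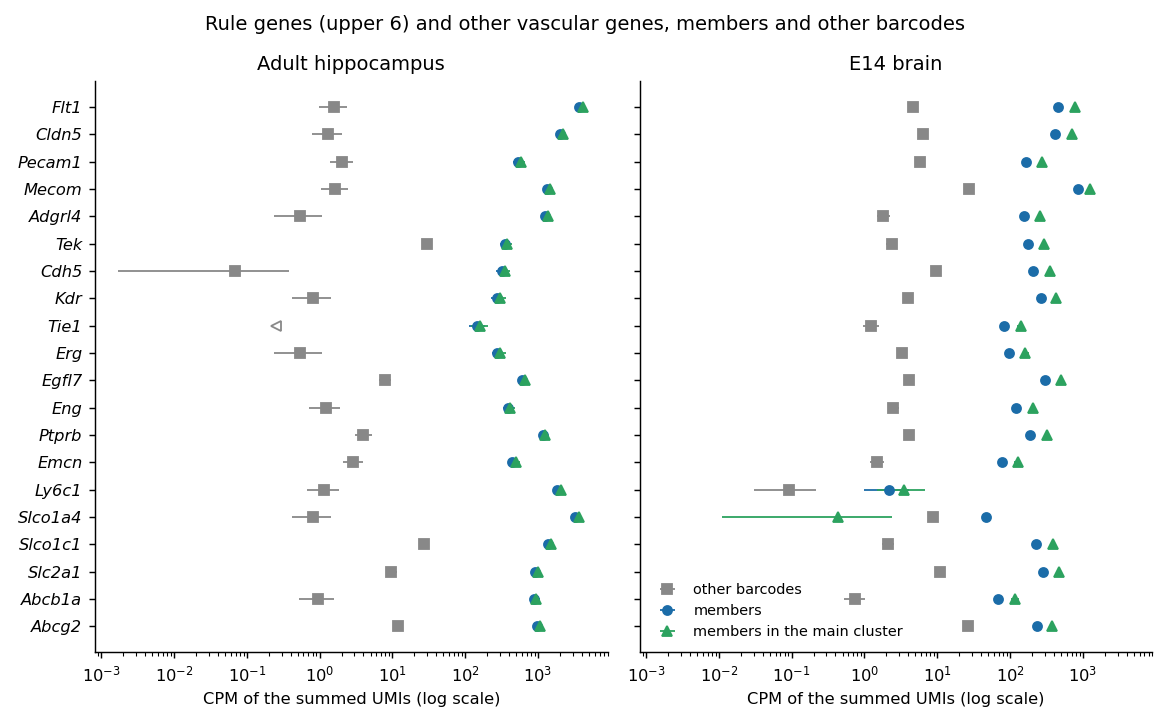
Levels of 20 endothelial genes in CPM (x axis, log scale) for the adult hippocampus and the E14 brain: blue circles are members, green triangles members in the endothelial gene cluster and grey squares the other barcodes, with bars for exact Poisson 95% intervals; an open left triangle marks 0 UMIs, drawn at the upper limit of its interval. Flt1, for example, stands at 3695 CPM in adult members against 1.56 CPM in the others, and at 456 against 4.61 CPM in E14.

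Carriers, pumps and receptors of the blood-brain barrier were enriched in members of both ages. All 25 of 25 tested in the adult were at least 2 times higher than in the other barcodes (median log2 ratio 4.74), as were 21 of 26 in E14 (median 2.70), beside the 28.2% and 11.1% of all genes. Slc2a1 encodes GLUT1, the glucose carrier of the barrier, and stood at 901 CPM in adult and 281 CPM in E14 members, 93 and 25.6 times the others. Abcb1a, the drug pump P-glycoprotein, was at 866 and 68 CPM, with 0.949 and 0.74 CPM in the others. Mfsd2a carries lipids bound to lysophosphatidylcholine into the brain and holds down vesicle traffic, and its levels in members were 186 and 136 CPM. Among the E14 genes that missed the ratio were Slc16a1, Slc16a4, Slc6a6 and Insr, at 1.05, 1.18, 1.83 and 1.94 times the others. Slc16a1 encodes the lactate carrier MCT1, and in the adult it stood at 9.61 times.

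Junction genes were less uniform. In the adult 12 of 16 tested were at least 2 times higher in members and 1 was lower, and in E14 10 of 20 were higher and 1 lower (28.2% and 17.8% of all adult genes, 11.1% and 3.02% of all E14 genes). Cgnl1 encodes paracingulin, a junction scaffold, and was 549.9 times higher in adult and 9.57 times higher in E14 members. Ocln, the occludin of tight junctions, was 16.3 and 15.6 times higher, and Tjp1, the scaffold ZO-1, 3.52 and 2.29 times. The lower one was Ildr2 in the adult (0.498 times) and Marveld3 in E14 (0.299 times, from 5 member UMIs). Among genes of caveolae and fenestrae, 6 of 7 adult and 6 of 8 E14 genes were higher in members. Plvap, the diaphragm protein of leaky vessels, had 2 UMIs in adult members (4.39 CPM, 0.531 to 15.8), no more than the 6.71 CPM of the other adult barcodes. In E14 members Plvap had 78 UMIs (18.8 CPM), 17.8 times the other E14 barcodes.

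Lists of genes for the signals that shape vessels held genes that were higher in members in both libraries. Of VEGF and angiopoietin genes, 4 of 7 adult and 5 of 11 E14 genes were at least 2 times higher in members, beside 28.2% of all adult and 11.1% of all E14 genes, shares that stand beside the other counts of these groups too. The receptors Flt4 (VEGF receptor 3) and Tie1 were 46.4 and 66.9 times higher in E14 members, while Vegfa, the ligand, stood at 0.876 times and Angpt2, the TIE2 ligand of remodelling vessels, at 0.982 times. Of Notch genes, 5 of 5 and 7 of 11 were higher, with Dll4, the ligand of sprouting tips, at 210.3 and 18.3 times. Wnt receptors and response genes gave 17 of 19 and 15 of 19: Lef1, the Wnt effector factor, was 13.7 and 4.11 times higher and Apcdd1, a feedback inhibitor, 30.6 and 9.37 times. For TGF-beta and BMP the counts were 12 of 12 and 8 of 14, with Acvrl1, the endothelial BMP receptor ALK1, at 623 and 86.7 times. Among transcription factors, 23 of 26 adult and 21 of 28 E14 genes were higher in members. The ETS factor Erg was 509.5 and 29.3 times higher, Fli1 89.2 and 35.9 times and Ets1 181 and 25.1 times. No gene of these 5 groups was at most 0.5 times the level of the others in either library.

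Basement membrane genes and their integrins were higher in members for 13 of 15 adult and 18 of 20 E14 genes tested, beside 28.2% and 11.1% of all genes. Outside the lists, the genes with the largest ratios over the other adult barcodes included Ctla2a (3396 times), Zfp366 (2523), Dipk2b (1747) and Wfdc1 (2103). Zfp366 and Dipk2b were also among the 15 leading genes in E14, at 115 and 159 times. Zfp366 encodes a zinc finger repressor, and its level was 342 CPM in adult and 109 CPM in E14 members, with 2 and 51 UMIs in all other barcodes. The E14 leaders also held Fam124b (31 UMIs in members, 1 in the others, 0 in adult members), the T-box factor gene Tbx1 (108 times) and Cd93, an adhesion receptor of growing vessels (69.2 times).

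Set side by side, adult members held more of the general endothelial genes per UMI than E14 members. Of 30 genes, 22 were at least 2 times higher in the adult and 0 at most 0.5 times, beside 21.8% and 19.3% of all 8545 genes tested. Within the main clusters 15 of 30 were higher and 0 lower, beside 19.2% and 18.8% of 7795 genes. The summed list stood at 13604 CPM in adult and 4438 CPM in E14 members, a ratio of 3.06 (2.98 to 3.15). The ratio was 2.12 (2.06 to 2.19) in the main clusters, 1.5 for members picked at equal depth, and 0.95 over the other barcodes. The neuronal genes in these 3 E14 sets of members summed to 8580, 5859 and 3703 CPM. Over all genes tested the median log2 ratio of adult to E14 was 0.08 for members and 0.04 for the main clusters.

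Single genes of the list lay above and below its summed ratio. Ly6c1, a surface protein of mature brain endothelium whose near-identical relatives leave its counts uncertain, had 843 UMIs in adult members and 9 in E14 members, a ratio of 852 (447 to 1870). Slfn5 was 26.4 (17.1 to 41.7) times higher in adult members. Epas1, the oxygen-regulated factor HIF-2 alpha, was 6.57 (5.77 to 7.49) times higher, and 4.35 times in the main clusters. By contrast Kdr was at 269.8 and 263 CPM, a ratio of 1.02 (0.844 to 1.24), which became 0.692 in the main clusters. Fli1 (1.3 (1.12 to 1.5), main clusters 0.828) and Cdh5 (1.53 (1.27 to 1.83), main clusters 0.992) likewise lay near or under 1 once the outlying E14 members were left out. Egfl7, 2.02 times higher in adult members, stood at 0.858 (0.736 to 0.996) times for members picked at equal depth, so its direction turned.

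Most barrier carriers and pumps past the ratio were higher in the adult, and the share higher in E14 was under that of all genes. Of 27 genes tested, 16 were at least 2 times higher in adult members and 3 at most 0.5 times, and within the main clusters 14 and 4 of 26 were (21.8% and 19.3%, then 19.2% and 18.8%, of all genes). The sharpest was Slco1a4, a carrier of organic anions and bile acids at the barrier, with 1489 UMIs in adult members (3266 CPM), all 63 of which held at least 1. E14 members held 195 Slco1a4 UMIs, but only 1 of them in the 150 main cluster members (0.432 CPM), so that the main cluster ratio was 8352 (1497 to 330098). The other 194 were in members of other clusters, and the other E14 barcodes held 8.77 CPM. Its relative Slco1c1, the thyroxine carrier OATP1C1, was present at both stages, at 1351 CPM in adult, 228 CPM in E14 and 389.7 CPM in E14 main cluster members.

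Drug pumps were higher in the adult. Abcb1a had a ratio of 12.7 (10.9 to 14.9), Abcc4 (MRP4) of 17.9 (13.9 to 23.2) and Abcg2 (BCRP) of 4.21 (3.75 to 4.71), and in the main clusters the ratios were 8.1, 13.9 and 2.81. The lactate carrier gene Slc16a1 had 71 UMIs in adult and 23 in E14 members (ratio 28.1 (17.3 to 47.1)), and the thiamine carrier gene Slc19a3 37 and 9 UMIs (37.4 (17.7 to 88.1)). Slc2a1 was 3.21 (2.86 to 3.59) times higher and 2.13 times in the main clusters. Higher in E14 were the carriers of amino acids Slc38a5 (2.63 times the adult level) and Slc7a1 (1.61 times), the cholesterol exporter Abca1 (3.34 times) and the reelin and apolipoprotein E receptor Lrp8 (3.07 times). Lrp8 was also 3.08 times higher in E14 among the other barcodes, and Slc7a1 1.45 times. For Mfsd2a the ratio was 1.37 (1.08 to 1.73) in all members and 0.894 in the main clusters, on either side of 1.

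Junction genes were set side by side in the same way. Of 16 tested, 6 were at least 2 times higher in adult members and 1 at most 0.5 times (21.8% and 19.3% of all genes), and the summed list had a ratio of 1.31 (1.25 to 1.37), which fell to 0.961 for members picked at equal depth. Ocln was 7.62 (5.81 to 9.98) times higher in the adult and Jam2, an adhesion molecule of tight junctions, 4.42 (3.46 to 5.62) times. Magi1, a junction scaffold that neurons also express, was 3.59 times higher in E14 members and 4.73 times in the other E14 barcodes. Of vesicle genes, 6 of 7 were higher in the adult: Cav1, the coat protein of caveolae, had a ratio of 4.72 (3.34 to 6.62) and Cavin2, which shapes them, of 48.3 (26.5 to 95.2). Plvap went the other way, with a ratio of 0.233 (0.0278 to 0.872) from 2 adult UMIs.

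Genes of antigen presentation, interferon response and leukocyte adhesion were higher in the adult members. Of 18 on the list 12 had the UMIs to be tested, and these 12 were at least 2 times higher in the adult, as were 11 of 11 in the main clusters, beside 21.8% and 19.2% of all genes. Some of them, such as Ly6a, passed the filter through the adult set alone. The list summed to 4233 CPM in adult members and 334 CPM in E14 members, a ratio of 12.7 (11.8 to 13.6). It was 10.4 (9.66 to 11.3) in the main clusters, 8.41 at equal depth, and 0.927 in the other barcodes. B2m, the light chain of MHC class I, stood at 456 CPM in adult members, 33.5 CPM in E14 members and 53.2 CPM in the E14 main cluster. The class I heavy chain genes H2-D1 and H2-K1, which are near-identical to relatives and so uncertain, had ratios of 8.75 (7.06 to 10.8) and 9.35 (7.39 to 11.8). Ifitm3, a membrane protein that blocks virus entry, had 168 UMIs in adult and 32 in E14 members (ratio 47.8 (32.6 to 72.1)). Ly6e stood at 794 against 23.6 CPM. Ly6a, an interferon-induced surface protein with close relatives, had 477 UMIs against 2, a ratio of 2170 (598 to 17971). The adhesion gene Icam1 had 3 adult and 34 E14 UMIs, too few to tell the stages apart (ratio 0.803 (0.158 to 2.55)), and Sele and Cd74 had 0 and 0 UMIs in adult members. Vcam1 was 2.71 times higher in adult members, but 0.423 (0.0103 to 2.62) times, from 1 adult UMI, once members with 3 or more mural genes were left out.

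Genes outside the lists were ranked by adult to E14 ratio where it was at least 2 times that of the other barcodes. The leading ones held further interferon-induced genes. The interferon-induced GTPase genes Iigp1 and Gbp2 had 40 and 23 UMIs in adult members and 1 each in E14 members, giving ratios of 364 (61.7 to 14730) and 209 (34 to 8621). Sp100 had 77 against 2 UMIs, the interferon regulatory factor gene Irf1 31 against 2, and Psmb8, a subunit of the immunoproteasome, 29 against 2. Clic5, a chloride channel family gene, had 101 against 4 UMIs (ratio 229.7 (87 to 859.5)) and Hspb1, a small heat shock protein gene, 134 against 9 (136 (69.3 to 303)).

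Basement membrane genes lay on both sides. Of 18 tested, 4 were at least 2 times higher in adult members and 7 at most 0.5 times (median log2 ratio -0.29), beside 21.8% and 19.3% of all genes, and in the main clusters 3 and 8 (median -0.84), beside 19.2% and 18.8%. Col4a1, a chain of collagen IV, stood at 456 CPM in adult and 1425 CPM in E14 members, or 2417 CPM in the main cluster, so E14 was 3.12 (2.72 to 3.6) times higher. After thinning, 33.3% of adult and 63.3% of E14 members held a Col4a1 UMI, with 2.23% and 6.62% in the other barcodes. Its partner chain Col4a2 was 2.08 (1.76 to 2.46) times higher in E14, and Col18a1, the source of endostatin, 11 (5.29 to 27.4) times. Lama4, the laminin chain of vessel walls, was 1.66 (1.3 to 2.14) times higher. In the adult direction lay Fn1, fibronectin, at 3.36 (2.84 to 3.95) times, Lamb2 at 6.02 (4.0 to 8.98) times and the laminin-binding integrin gene Itga6 at 4.07 (3.39 to 4.87) times. The summed list had an adult to E14 ratio of 0.905 (0.863 to 0.949) over all members, 0.453 at equal depth and 1.05 with members holding 3 or more mural genes left out, so its direction rested on which members were taken.

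**Figure D3:**
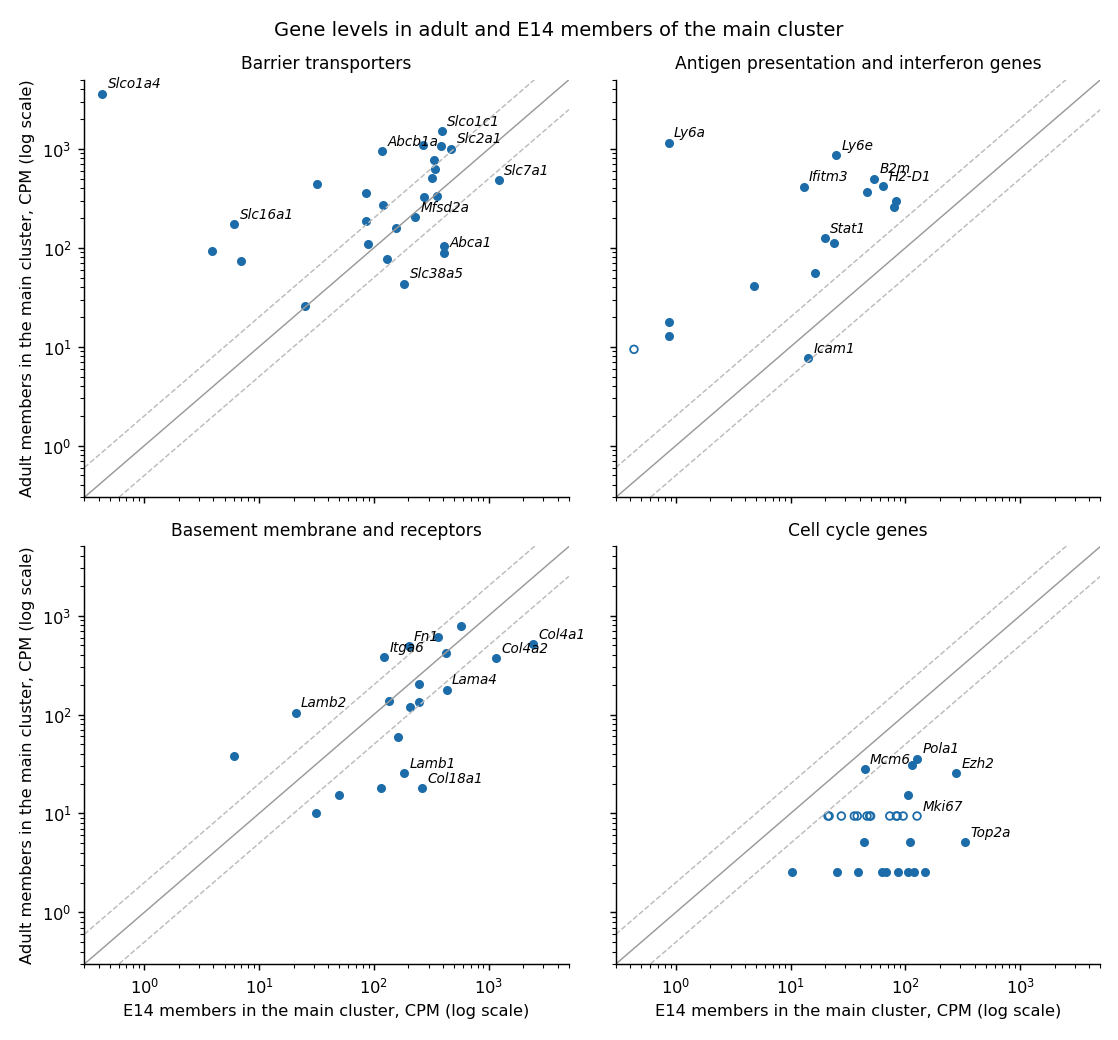
Each point is 1 gene of 4 lists (barrier transporters, antigen presentation and interferon, basement membrane, cell cycle), with its level in E14 main cluster members against that in adult main cluster members in CPM (both axes on log scales); the solid line marks equal levels, the dashed lines ratios of 2 and 0.5, and open points a set at 0 UMIs drawn at the upper limit of its interval. Antigen presentation and interferon genes lie on the adult side and cell cycle genes on the E14 side, while the other 2 lists have genes on both.

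Genes of DNA replication and mitosis were higher in E14 members. Of 19 tested, 18 were at most 0.5 times the E14 level in the adult and 0 were higher (median log2 ratio -3.40), and in the main clusters 17 of 18, beside 19.3% and 18.8% of all genes. The summed list had an adult to E14 ratio of 0.078 in members and of 0.162 in the other barcodes, so E14 was higher there as well. Top2a, the topoisomerase of dividing cells, had 2 UMIs in adult members and 1165 in E14 members (281 CPM, 332 in the main cluster), and E14 was 64 (17.7 to 529) times higher. Mki67, the proliferation marker, had 0 adult UMIs and 434 E14 UMIs, so the E14 level was at least 15.9-fold higher with 3 counts over the adult members as the floor. Ezh2, a chromatin methyltransferase of growing cells, had 26.3 against 272 CPM. Within the E14 library, 20 of 30 of these genes were also at least 2 times higher in members than in the other barcodes, beside 11.1% of all genes. After thinning to 1000 UMIs, 59 (29.6%, 23.4 to 36.5) of 199 E14 members, 48 (32%, 24.6 to 40.1) of the 150 and 859 (11%, 10.3 to 11.7) of the other 7798 held 3 or more cell cycle genes, and 0 (0%, 0 to 5.69) of 63 adult members did. Unthinned, 174 E14 and 9 adult members did.

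Of imprinted and fetal growth genes, 13 of 16 tested were at most 0.5 times the E14 level in adult members and 1 at least 2 times, beside 19.3% and 21.8% of all genes. The summed list stood at 5187 CPM in E14 members and 5793 CPM in the other E14 barcodes. Its adult to E14 ratio was 0.515 in members and 0.736 in the other barcodes, so E14 was higher there as well. H19 and Dlk1, imprinted genes of the fetus, had 0 UMIs in adult members and 199 and 256 in E14 members, at least 7.29-fold and 9.38-fold higher. Igf2bp1, an RNA-binding protein of fetal tissue, had 0 and 425 UMIs, and Lin28b, which blocks let-7 processing, 1 and 525. Igf2, the fetal growth factor, was the exception in size: 116 CPM in adult members against 0.203 CPM in the other adult barcodes, and 164 CPM in E14 members, with a ratio of 0.709 (0.526 to 0.939). Mest, an imprinted hydrolase gene, had 7 and 1354 UMIs (21.3 (10.3 to 53) times higher in E14). Igf1r, the receptor for insulin-like growth factors, was the gene higher in the adult, at 2.45 (2.27 to 2.65) times.

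Genes known to mark positions along the vessel tree gave different counts by list. Capillary genes were higher in the adult for 7 of 9 tested and lower for 0, arterial genes for 9 and 1 of 14, venous genes for 4 and 1 of 9, and tip cell and sprouting genes for 1 and 5 of 8, beside 21.8% and 19.3% of all genes. The summed venous list had a ratio of 0.969 (0.879 to 1.07). Car4, a carbonic anhydrase of capillary walls, stood at 515 CPM in adult and 10.8 CPM in E14 members (ratio 47.5 (34.4 to 66.9)), and among the other barcodes the adult was also higher, at 66.7 times. Spock2, a matrix proteoglycan gene, was 6.25 (5.67 to 6.88) times higher and Rgcc, a cell cycle regulator, 12.6 (9.06 to 17.6) times. The chemokine gene Cxcl12 was 20.0 (16.6 to 24.2) times higher. Of arterial genes, Gkn3 had 28 UMIs in adult members and 0 in E14 members, at least 84.9-fold higher, Mgp, an inhibitor of calcification, 93 and 1 (846 (148 to 33778)), and the kinase gene Bmx 23 and 16 (13.1 (6.62 to 26.5)). Efnb2, the ephrin ligand of arteries, went the other way, with 2.42 times the adult level in E14 members. Nr2f2, the factor of venous identity, was at 186 and 164 CPM, but in E14 the other barcodes held 152 CPM as well. The venous adhesion and acute phase genes Selp and Lcn2 had 0 and 0 UMIs in adult members.

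Sprouting genes as a list summed to 2184 CPM in adult and 2590 CPM in E14 members, a ratio of 0.843 (0.79 to 0.9), which was 0.827 in the main clusters and 1.04 with members holding 3 or more mural genes left out. E14 members stood at 1.05 times the other E14 barcodes for the list. Single genes lay further apart. Aplnr, the apelin receptor of growing veins and sprouts, had 2 UMIs in adult and 307 in E14 members (129.8 CPM in the main cluster, 0.574 CPM in the other barcodes), and E14 was 16.9 (4.63 to 139.9) times higher. Its ligand gene Apln had 1 and 34 UMIs, and Cxcr4, the chemokine receptor of tip cells, 0 and 59. Angpt2 was 4.67 (2.81 to 8.39) times higher in E14 members, but its level there (154 CPM) was that of the other E14 barcodes (156 CPM). Plxnd1, the semaphorin receptor that steers sprouts, was 2.46 (1.42 to 4.68) times higher in E14. Pcdh12, a protocadherin of endothelial cells outside the lists, had 1 and 152 UMIs.

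Signalling genes differed by pathway. VEGF and angiopoietin genes gave 1 higher and 3 lower in the adult of 9 tested, Notch genes 4 and 0 of 9, Wnt genes 9 and 1 of 20, and TGF-beta and BMP genes 7 and 1 of 13 (21.8% and 19.3% of all genes). Their summed ratios of adult to E14 members were 0.825 (0.752 to 0.904), 1.44 (1.28 to 1.63), 1.88 (1.78 to 1.99) and 2.69 (2.53 to 2.85), each under the 3.06 of the general endothelial list. At equal depth these ratios were 0.527, 0.979, 1.26 and 1.94, the last of them over the 1.5 of that list. The BMP response genes Id1 and Id3, which encode inhibitors of differentiation factors, were 18.6 (14.9 to 23.4) and 10.3 (8.74 to 12.3) times higher in the adult, and 13.2 and 7.25 times in the main clusters. Lef1 was 3.87 (3.47 to 4.32) times and the Wnt receptor gene Fzd6 4.22 (3.45 to 5.15) times higher, while the direct Wnt target Axin2 had a ratio of 1.69 (1.26 to 2.22). Notum, which inactivates Wnt proteins, had 21 and 8 UMIs (23.9 (10.2 to 62.4)). Dll4 had 13 and 87 UMIs, and its ratio of 1.36 (0.696 to 2.45) could not be told from 1.

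Transcription factors gave 12 higher and 1 lower of 27 tested, beside 21.8% and 19.3% of all genes. Their summed ratio was 1.69 (1.63 to 1.74) in all members and 1.02 for members picked at equal depth. Klf2 and Klf4, factors that blood flow switches on, stood at 564 and 101 CPM in adult members and at 35.4 and 5.3 CPM in E14 members, ratios of 15.9 (12.9 to 19.6) and 19 (11.2 to 33.2). In the main clusters these were 9.89 and 13.1. Sox17 and Sox18, SOX factors of vessel and artery formation, had ratios of 6.07 (4.08 to 8.94) and 8.7 (5.59 to 13.5), while the related Sox7 had 0.846 (0.473 to 1.41). Foxq1 and Foxf2, forkhead factors of brain endothelium, were 5.17 (3.96 to 6.71) and 4.84 (2.85 to 8.03) times higher in the adult. The ETS genes Erg, Ets1 and Fli1 were closer to equal, at 2.88, 1.66 and 1.3 over all members and 1.87, 1.08 and 0.828 in the main clusters. Foxp2 was 6.2 times higher in E14 members, where it stood at 286 CPM against 318 CPM in the other barcodes.

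Pericyte and smooth muscle genes were at least 2 times higher in adult members for 9 of 10 tested, beside 21.8% of all genes. Rgs5, a pericyte gene of the brain, had 902 UMIs in adult members and 338 in E14 members, a ratio of 24.3 (21.4 to 27.6), and Vtn, vitronectin, stood at 1162 and 46.8 CPM. Atp13a5, a transporter gene of brain pericytes, had a ratio of 60.9 (43.4 to 87.6). The receptor gene Pdgfrb, which defines pericytes, stood at 178 and 116 CPM, a ratio of 1.53 (1.19 to 1.93), and the smooth muscle gene Acta2 had 12 and 7 UMIs. With members that held 3 or more mural genes left out, 35 adult and 105 E14 members stayed. The genes were counted without thinning, and the members left out were deeper than those that stayed. Their median was 8980 against 3347 UMIs in the adult and 16606 against 7807 UMIs in E14. Depth and mural RNA thus changed together in this step and cannot be told apart. The summed mural ratio was 9.37 before and 10.15 (8.05 to 12.8) after, from 158 adult and 145 E14 mural UMIs that stayed, so this step left the mural difference in place. The adult to E14 ratio was then 3.73 for the general endothelial list, 4.22 for barrier carriers, 16.8 for antigen presentation and interferon genes, 7.56 for capillary genes and 0.374 for venous genes. Their order was as before for the first 4. Venous genes moved from 0.969 (0.879 to 1.07), an interval that holds 1, further towards E14.

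**Figure D4:**
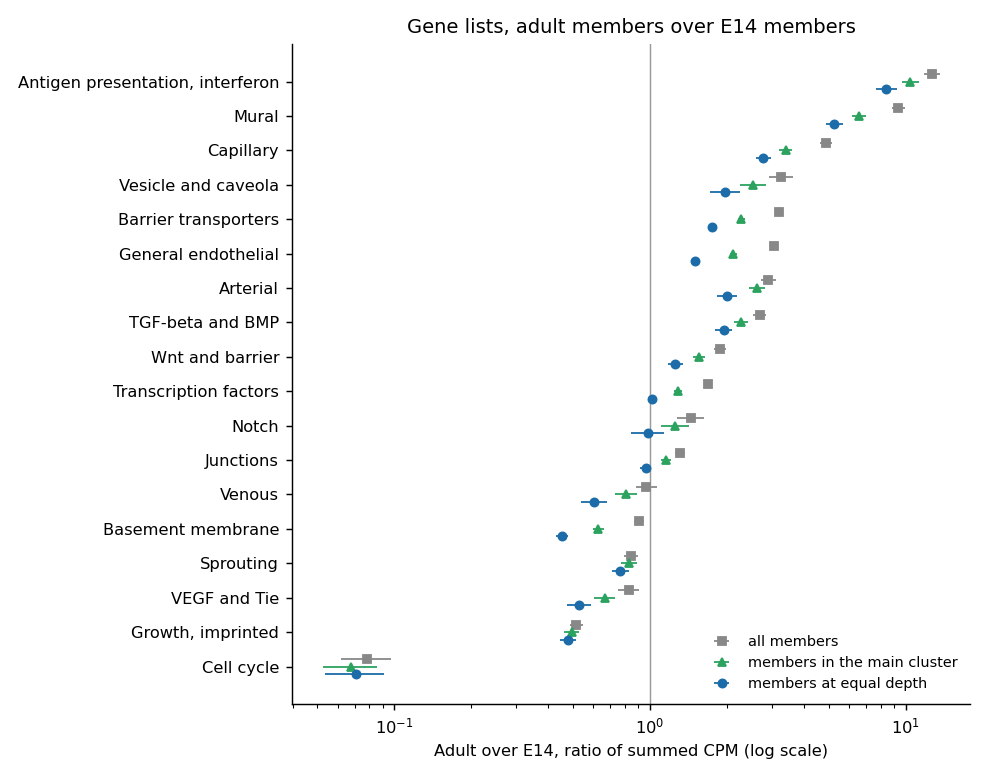
Ratio of adult to E14 members for 18 gene lists (x axis, log scale; summed CPM) with exact 95% intervals: grey points are all members, green points members of the main clusters and blue points members picked after thinning every barcode to 1000 UMIs. Antigen presentation and interferon genes stand highest among the lists of endothelial function, at 12.7, 10.4 and 8.41, and cell cycle genes lowest, at 0.078 over all members.

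Members also differed among themselves, and list genes were counted after thinning each member to 1000 UMIs. The members themselves were picked at full depth, so the picking was not at equal depth. At 1000 UMIs 50 of the 63 adult and 85 of the 199 E14 members met the rule. The capillary share of those 85 is given with the processing alternatives. At least 3 capillary genes were found in 35 (55.6%, 42.5 to 68.1) of 63 adult members and 28 (14.1%, 9.56 to 19.7) of 199 E14 members, or 28 (18.7%, 12.8 to 25.8) of the 150, against 0.149% and 0.0769% of the other barcodes. Arterial genes at the same count were found in 12 (19.1%, 10.2 to 30.9) adult and 16 (8.04%, 4.67 to 12.7) E14 members, and venous genes in 3 (4.76%, 0.993 to 13.3) and 16 (8.04%, 4.67 to 12.7). Of the 12 adult members with 3 or more arterial genes, 7 also held 3 or more capillary genes, as did 35 of all 63, and these lists share Cxcl12. No adult member held 3 or more of both the arterial and the venous genes, but with 3 venous members this count is too small to read. Sprouting genes reached 3 in 1 (1.59%, 0.0402 to 8.53) adult member and 47 (23.6%, 17.9 to 30.1) E14 members. Of those 47, 24 also held 3 or more neuronal genes, as did 91 of all 199 E14 members. Antigen presentation and interferon genes reached 3 in 47 (74.6%, 62.1 to 84.7) adult members and 3 (1.51%, 0.312 to 4.34) E14 members. Unthinned, the numbers of adult and E14 members were 59 and 157 for capillary, 40 and 132 for arterial, 21 and 166 for venous, 21 and 187 for sprouting, and 59 and 111 for immune genes.

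Per member, the summed level of general endothelial genes ran from 3608 to 30303 CPM in the adult (median 15345) and from 328 to 30241 CPM in E14 (median 6415). Antigen presentation and interferon genes ran from 234 to 14046 CPM in adult members (median 4033), and from 0 to 1626 CPM in E14 members (median 338). The ranges overlapped, but the E14 maximum was below the adult median. Cell cycle genes ran from 0 to 18984 CPM in E14 members (median 1653) and up to 921 CPM in adult members, where 29 of 63 had none. The 10 deepest members held 45.03% of the adult and 26.96% of the E14 members' UMIs, so summed levels weigh those nuclei most.

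**Figure D5:**
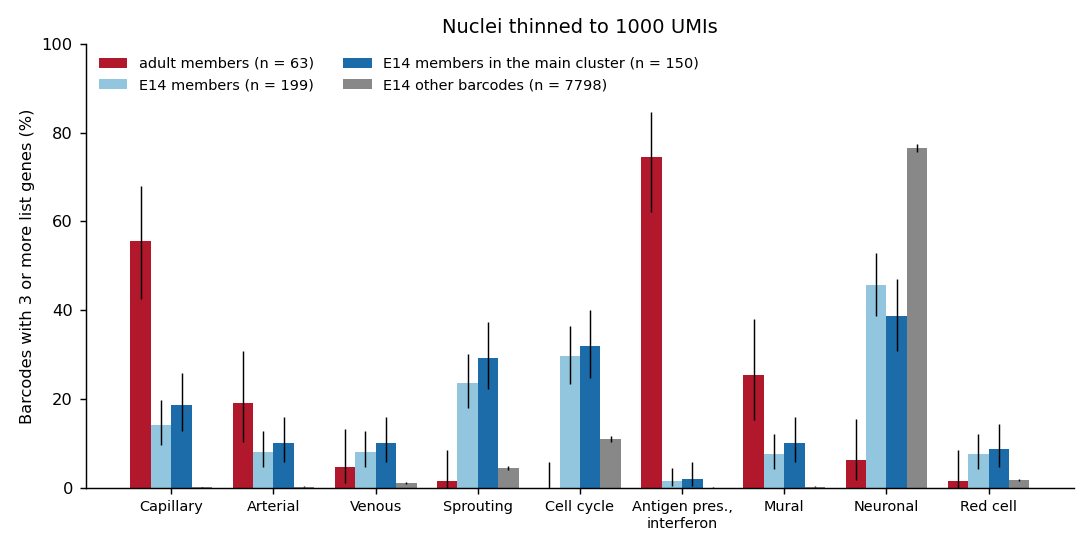
Share of barcodes (y axis, percent) with 3 or more genes of each of 9 lists after thinning to 1000 UMIs, for 63 adult members, 199 E14 members, 150 E14 main cluster members and 7798 other E14 barcodes; bars start at 0 and lines are exact binomial 95% intervals. Capillary and immune genes mark more adult members (55.6% and 74.6%) and cell cycle genes mark E14 members (29.6%).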

How the data were processed

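Slide-tags snRNA-seq was read for 2 mouse libraries, adult hippocampus and E14 brain. The deposited matrices hold raw UMI counts for 32285 genes in each barcode; per the study's methods, reads were mapped to the mm10 genome, introns included, and nothing was normalized. The file headers name Cell Ranger 6.1.2 for the adult and 7.0.1 for E14; its annotation is not given in the sources used here. The study's methods name CellBender for the embryo, but the deposited counts carry a Cell Ranger header and were treated as made before that step, so free RNA remains.

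From the counts, barcodes were kept at 1000 or more UMIs with a mitochondrial share below 5%, and those with 3 of the 6 rule genes were members. The members and gene lists were chosen with earlier results of these data known. UMIs were summed over each set and given as CPM with exact Poisson intervals, ratios with exact conditional binomial intervals and shares with Clopper-Pearson intervals, all at 95% confidence and for counting error only. Genes were tested for a ratio of 2 where the mean CPM of both sets reached that of 10 UMIs in the smaller set, and "called" means past that ratio, with no p-value. A set at 0 UMIs entered a ratio at a floor of 3 counts over the set. Barcodes were thinned without replacement to 1000 UMIs for shares.

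Louvain clusters were computed with Seurat 5.3.0 (R 4.3.3), following the study's own parameters (2000 variable genes, 30 principal components, resolution 0.8), and doublet scores from Scrublet in scanpy 1.11.5. Scrublet's automatic threshold did not separate doublets in E14, so barcodes up to the number expected at 0.8% per 1000 (19 adult and 578 E14) were left out as an alternative only. Sums used Python 3.11.15, pandas 2.3.3, numpy 2.4.6 and scipy 1.17.1, and the functions were tested on simulated data. Positions are from GENCODE vM21 on GRCm38, which matched 32235 of the gene IDs. Genes named are the 6 rule genes and list genes with the most UMIs, with a ratio of 2 between stages or at 0. Outside the lists they are the 15 with the largest ratios in each comparison among genes that passed further limits. Over the other barcodes, at least 10% of members had to hold a UMI. Between the stages, the interval had to exclude 1. The ratio there also had to lie at least 2 times beyond that of the other barcodes in the same direction.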

Additional observations from a re-analysis of the deposited data

Results flagged for a closer look

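The list genes and named genes that were tested in both libraries, 262 in all, were compared for opposite directions. Slc1a2, the glutamate transporter GLT-1 of astrocytes, was the 1 gene past a ratio of 2 in 1 library and of 0.5 in the other. Smaller differences in opposite directions were not counted. In the adult library members held 3.08 times the level of the other barcodes (2219 against 720 CPM), and in the E14 library members held 0.494 times the level of the others (71.1 against 143.8 CPM). The difference between the libraries was not tested. The 8 astrocyte genes as a list stood at 2.70 times the level of the others in adult members (5643 against 2087 CPM) and at 1.04 (0.987 to 1.09) times in E14 members (439 against 424 CPM), and their part in the result was not tested.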

How the results depend on the processing

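No paired analysis was possible because each stage had 1 library. Of the 38 summary values, only summed list ratios of at least 2 or at most 0.5 could be called reversed, and none of these was. Of 162 list genes called between the stages, 0 turned in the main clusters, 5 at equal depth (Egfl7 to 0.858, F11r to 0.939, Tal1 to 0.878, Tmem252 to 0.894, Bmp6 from 0.259 to 1.09) and 2 without members holding 3 mural genes (Vcam1 to 0.423; Notch3 from 2.95 to 0 adult UMIs, upper limit 0.519), where 32, Notch3 among them, had too few UMIs for a ratio or gave only a limit; the cause was not tested. With 2 of 6 rule genes required, 336 E14 members were found, 1567 adult genes were called higher and 401 lower than in the other barcodes, 286 E14 genes lower, and 39.33% of adult and 8.333% of E14 members held 3 capillary genes. With 4 of 6, E14 called 700 lower. With the rule applied at 1000 UMIs, 85 E14 members gave 1647 lower genes and 27.06% with capillary genes, and 1212 genes were higher in the adult than in E14. Without members holding 3 mural genes, 35 adult members gave 1054 higher and 717 lower genes and 71.43% with capillary genes, 105 E14 members gave 1043 and 296, and between the stages 924 genes were higher in the adult and 842 in E14. E14 called 877 lower without likely doublets and 1225 in the main cluster. A ratio of 4 left 1019 and 846 adult, 660 and 13 E14, and 682 and 750 between-stage genes. A filter at 30 UMIs left 1043 and 751 adult genes, 255 lower in E14, and 809 and 748 between the stages. Thinned to 2000 UMIs, shares were 84.75% (adult) and 32.28% (E14) for capillary and 57.14% for E14 cell cycle genes. Limits of 500 or 2000 UMIs, 1% mitochondrial UMIs and nuclear genes only moved no value beyond its limit. With the mean of each member's own CPM in place of summed UMIs, 18 of 20 between-stage values moved beyond their limits and 0 were reversed. Over 11 alternatives the adult to E14 ratio of summed genes crossed 1 for junction (0.88 to 1.33), Notch (0.84 to 1.47), venous (0.374 to 1.01), sprouting (0.62 to 1.04) and basement membrane genes (0.453 to 1.05). Adult genes rest on fewer UMIs, with 455970 in all adult members against 4148841 in all E14 members.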

Other observations

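Outside the lists, 15 genes had the largest E14 to adult ratios, and several are known from neurons, such as the netrin receptor gene Unc5d, Gad2 of inhibitory neurons and Igfbpl1; their levels in E14 members were 610, 218 and 324 CPM, and 849, 300 and 305 CPM in the other E14 barcodes. Kit, the receptor for stem cell factor, was different in that its level in E14 main cluster members (234 CPM) was above that of the other E14 barcodes (71.2 CPM), while adult members held 1 UMI. Prnd, a relative of the prion protein gene, had 1 UMI in adult members and 156 in E14 members, at 88.4 times the level of the other E14 barcodes. Paqr5, a progesterone receptor family gene, had 116 UMIs in adult and 13 in E14 members, and Tm4sf1, a membrane protein of endothelial cells, 225 and 55. The embryonic globin gene Hbb-y had 0 UMIs in adult members and 3127 in E14 members, 1095 CPM in the main cluster against 150.2 CPM in the other E14 barcodes, and at equal depth it was found in 20.0% of main cluster members and 8.17% of the others.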
